A study of Mus musculus with 6 samples.

Results

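The BCL2 family sets the threshold of mitochondrial apoptosis, and 9 of the 10 genes listed for it here were measured in EpH4 cells, among 20848 genes in all. A gene was taken as measured where the array had probe sets naming it alone, and their log2 signals were averaged per array. The 9 genes were Bcl2, Bcl2l1 and Mcl1 (anti-apoptotic), Bak1 (an effector), and Bcl2l11, Bbc3, Pmaip1, Bid and Bmf (BH3-only genes). Bax, the other effector gene, was not analysed here. The 9 genes had 74 such probe sets, from 3 for Pmaip1 to 17 for Bcl2l1.

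EpH4 is a mouse mammary epithelial cell line, and its cultures had been confluent for 7 days, with tight junctions formed, when treatment began. The treated group, TGF-β3, received this ligand at 1 ng/ml for 24 hours in medium without serum. The control group, Vehicle, received vehicle in the same medium for the same time. Each group held 3 samples from 3 experiments, each sample on 1 array with RNA pooled from 3 wells, and titles number the samples 1 to 3 in both groups. All samples come from this 1 line, and the signals are of RNA from whole monolayers. Fewer cells of a kind and less RNA per cell cannot be told apart in such samples.

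In this pathway the anti-apoptotic proteins BCL2, BCL-XL (from Bcl2l1) and MCL1 hold back the effectors BAX and BAK, which otherwise open the outer mitochondrial membrane and release cytochrome c. BH3-only proteins, among them BIM (from Bcl2l11), PUMA (Bbc3), NOXA (Pmaip1), BID and BMF, sense stress and tip this balance by binding the other proteins. In the mammary gland, TGF-β3 rises early in involution, when secretory epithelium dies, and TGF-β has been described to induce Bcl2l11 and Bmf in epithelial cells. Much of the family's control lies in protein cleavage, phosphorylation and turnover, which an RNA array does not read.

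Array medians over probe sets lay between 6.56 and 6.64 log2 units. Precision is limited by having 3 arrays a group. The Vehicle 3 array stood apart from the other arrays. Its signals were compressed, with an SD over genes of 1.58 against 1.68 to 1.74 on the other arrays. With genes ranked by signal in 5 equal bins, those of the highest bin lay 0.16 below their own means on that array, and those of the lowest bin 0.13 above theirs. Of 13 mammary epithelial markers measured, Krt8 averaged 11.82 ± 0.08 in TGF-β3 and 11.76 ± 0.04 in Vehicle arrays (SD, n = 3). Krt19 and Elf5, also of that list, gave low signals of 4.87 to 4.98 and 4.98 to 5.24 over all arrays. The mean signal of 7 endothelial markers was 5.16 to 5.22 in TGF-β3 and 5.18 to 5.45 in Vehicle arrays. For 8 macrophage markers it was 5.73 to 5.85 in TGF-β3 and 5.68 to 5.88 in Vehicle arrays, and for 8 fibroblast markers 6.54 to 6.76 and 6.51 to 6.78. For the epithelial list it was 8.88 to 8.98 and 8.83 to 8.95. Single genes, averaged over all arrays, ran from 4.92 to 11.79 in the epithelial list and from 4.74 to 6.13 in the endothelial one. They ran from 4.47 to 7.58 (Cd14) among macrophage and from 4.34 to 9.14 (Col1a1) among fibroblast markers. Of the macrophage markers 3 were higher in TGF-β3, Csf1r by 0.36, and 5 lower. Arrays give no true zero, and the signal at which a transcript lies above background is unknown here.

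After 24 hours of TGF-β3, the BCL2 family genes stood close to their vehicle levels. The mean differences of the 9 genes, TGF-β3 minus Vehicle, ran from -0.14 (Pmaip1) to 0.21 (Bak1) log2 units, with 7 above 0, as in 52.8% of all genes. That count of 7 was 3 after quantile normalization, 4 without the Vehicle 3 array and 4 with the brightest probe set of each gene. It stayed 7 without both arrays numbered 3. None passed the test (0 of 9 at an adjusted p under 0.05 in limma over all genes, 0 of 9 at an unadjusted p under 0.05, lowest adjusted p of a member 0.684). Over the whole array 0% of genes passed at the adjusted threshold and 5.16% at the unadjusted one. With the title number added as a replicate block, 0 of the 9 passed as well (lowest adjusted p = 0.411; 0.00959% of all genes passed), and 0 of 9 had an unadjusted p under 0.05 (12.2% of all genes). Bak1 had the lowest unadjusted p of the members under the block, 0.0522 in limma. The block lowered the SE of Bak1 from 0.14 to 0.09, of Bcl2l11 from 0.13 to 0.07 and of Bbc3 from 0.17 to 0.08. Those of Bcl2l1 and Bid were unchanged to the second decimal. Gene values below are from the fit without the block, unless stated.

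The intervals around these differences were about as wide as those of all genes. With probe sets averaged, the 95% interval of all 9 genes lay within a 1.5-fold change either way, as in 95.7% of all genes. Half-widths had a median of 0.207 log2 units for the members and 0.218 for all genes. The bound is for all arrays and does not extend to fits with an array left out or to the brightest probe set of each gene. Without the Vehicle 1 array Bak1 differed by 0.32 (SE 0.14) and Bbc3 by 0.22 (SE 0.16). With the brightest probe set the SE was 0.28 for Bcl2l11 (difference -0.38), 0.35 for Bbc3 (-0.07) and 0.16 for Pmaip1 (-0.31). For Bak1 and Mcl1 it was 0.13 and 0.10, below their SEs with probe sets averaged.

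**Figure D1:**
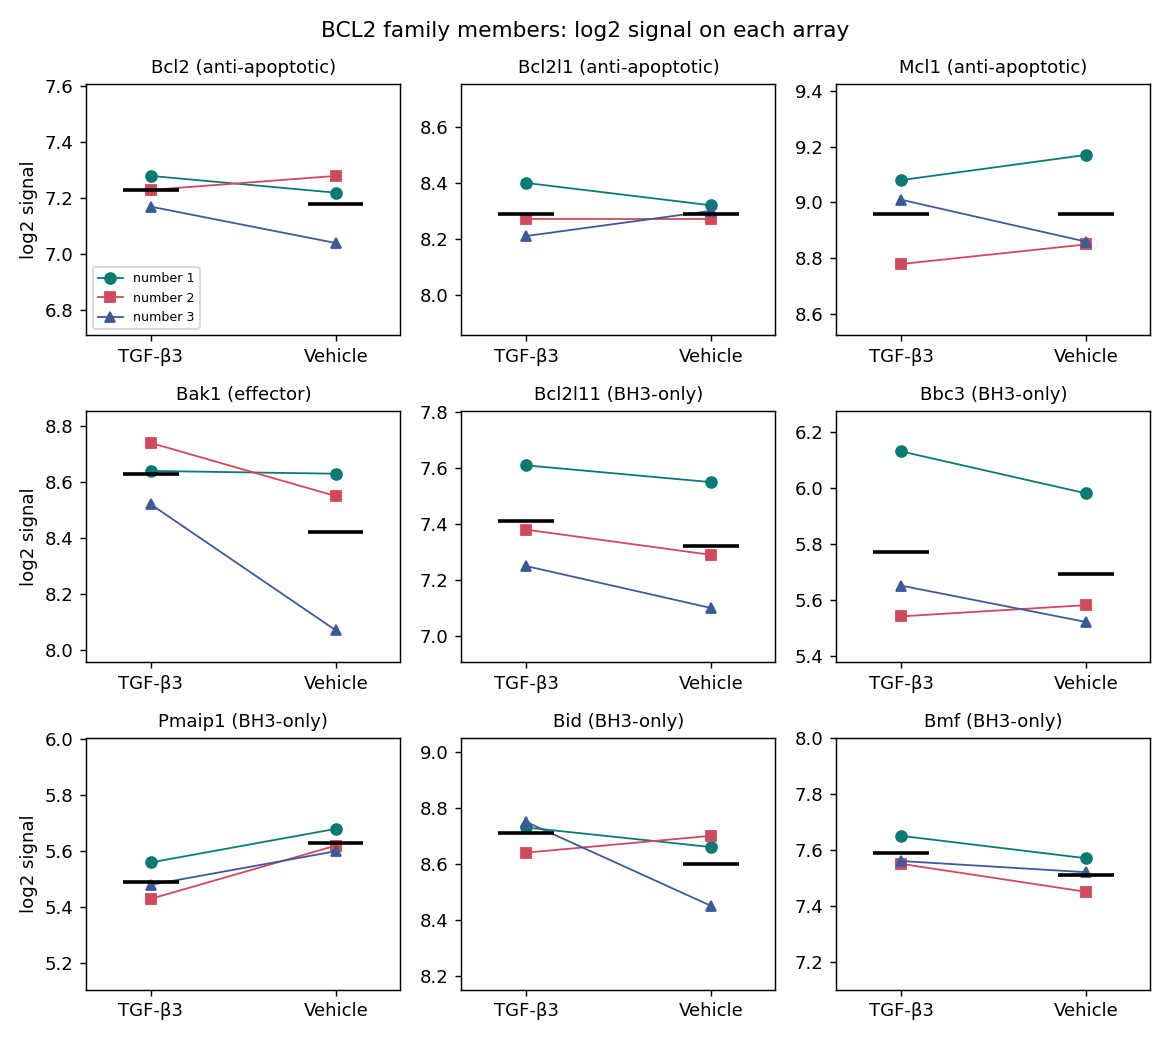
Log2 signal of each measured BCL2 family gene (vertical axes, each spanning 0.9 log2 units) in TGF-β3 and Vehicle arrays. Lines join arrays of the same title number and black bars are group means (n = 3). Pmaip1 is the gene whose groups do not overlap, and the Vehicle 3 array is the low point of 5 genes (Bcl2, Bak1, Bcl2l11, Bbc3 and Bid).

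Among the anti-apoptotic genes, Bcl2l1 and Mcl1 had equal group means to the second decimal. Bcl2l1, whose main product BCL-XL is a long-lived survival protein of epithelia, had signals of 8.40, 8.27 and 8.21 in TGF-β3 arrays 1, 2 and 3, against 8.32, 8.27 and 8.30 in Vehicle arrays. The groups overlapped throughout, and the difference was 0.00 (SE 0.08, 95% interval -0.18 to 0.19, adjusted p = 0.997). Mcl1, which encodes a survival protein of rapid turnover, read 9.08, 8.78 and 9.01 in TGF-β3 against 9.17, 8.85 and 8.86 in Vehicle. Number 1 was the highest array of each group for Mcl1, and the difference of -0.01 (SE 0.12, adjusted p = 0.986) was lower in pairs 1 and 2 and higher in pair 3. Bcl2, the founding member of the family, read 7.28, 7.23 and 7.17 in TGF-β3 arrays and 7.22, 7.28 and 7.04 in Vehicle arrays. Its difference was 0.05 (SE 0.09, 95% interval -0.16 to 0.25, adjusted p = 0.829).

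The effector gene Bak1 had the largest difference of the members. Its signals were 8.64, 8.74 and 8.52 in TGF-β3 arrays and 8.63, 8.55 and 8.07 in Vehicle arrays. Vehicle 3 was the low array, and the other 5 lay within 8.52 to 8.74. The difference of 0.21 (SE 0.14, 95% interval -0.11 to 0.53, adjusted p = 0.684) was made of pair differences of 0.00, 0.19 and 0.44. Without the Vehicle 3 array it was 0.04, and after quantile normalization, which gives every array the same distribution of signals, it was 0.10. Without the Vehicle 1 array it was 0.32, with an unadjusted p under 0.05 in limma (adjusted p = 0.274). With any other single array left out it was 0.16 to 0.28. Of the 9 probe sets of Bak1, 8 were higher and 1 lower in TGF-β3.

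Of the 5 BH3-only genes, 4 had a higher mean in TGF-β3 arrays and 1, Pmaip1, a lower one. Pmaip1 encodes NOXA, which binds mainly MCL1. It read 5.56, 5.43 and 5.48 in TGF-β3 arrays against 5.68, 5.62 and 5.60 in Vehicle arrays. All TGF-β3 arrays lay below all Vehicle arrays, by 0.12, 0.19 and 0.12 in pairs 1, 2 and 3. The difference of -0.14 (SE 0.08, 95% interval -0.32 to 0.03) did not pass the test (adjusted p = 0.684). Pmaip1 was the 1 member of 9 without overlap of the groups, where 12.9% of all genes had none and 6.05% had none with TGF-β3 the lower. Genes of the same signal bin (4.89 to 5.58) had a median difference of -0.08, and quantile normalization left Pmaip1 at -0.08. Its 3 probe sets differed by -0.31 to -0.03, and their part in the gene's value was not tested.

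Bcl2l11 and Bmf, the BH3-only genes with a described TGF-β response, were both slightly higher in 3 of 3 pairs. Bcl2l11 read 7.61, 7.38 and 7.25 in TGF-β3 arrays and 7.55, 7.29 and 7.10 in Vehicle arrays, so that the groups overlapped while each pair leaned the same way. The difference was 0.10 (SE 0.13, 95% interval -0.20 to 0.40, adjusted p = 0.764). Bmf, whose protein is tied to the cytoskeleton and to death on loss of attachment, read 7.65, 7.55 and 7.56 in TGF-β3 and 7.57, 7.45 and 7.52 in Vehicle. Its difference was 0.08 (SE 0.08, adjusted p = 0.717), the upper end of its 95% interval was 0.26, and the sign turned after quantile normalization (-0.05 for Bmf, -0.01 for Bcl2l11). Without the Vehicle 3 array Bcl2l11 was at -0.01 and Bmf at 0.08. Without both arrays numbered 3, which keeps the pairs whole, they were at 0.07 and 0.09. Of the 9 members, 4 kept the same sign in 3 pairs (Bak1, Bcl2l11 and Bmf higher, Pmaip1 lower), where 42% of all genes did, 24% as higher and 18% as lower.

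Bid, cleaved by caspase 8 to link death receptors to mitochondria, read 8.73, 8.64 and 8.75 in TGF-β3 arrays and 8.66, 8.70 and 8.45 in Vehicle arrays. The Vehicle 3 array was again the lowest, and the difference was 0.11 (SE 0.09, adjusted p = 0.69) with all arrays and 0.03 without that array. Bbc3, which encodes PUMA, a BH3-only protein induced by p53 and by stress, read 6.13, 5.54 and 5.65 in TGF-β3 and 5.98, 5.58 and 5.52 in Vehicle. Both arrays numbered 1 stood above the other 4, and the difference between the groups was 0.08 (SE 0.17, 95% interval -0.31 to 0.46, adjusted p = 0.848).

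**Figure D2:**
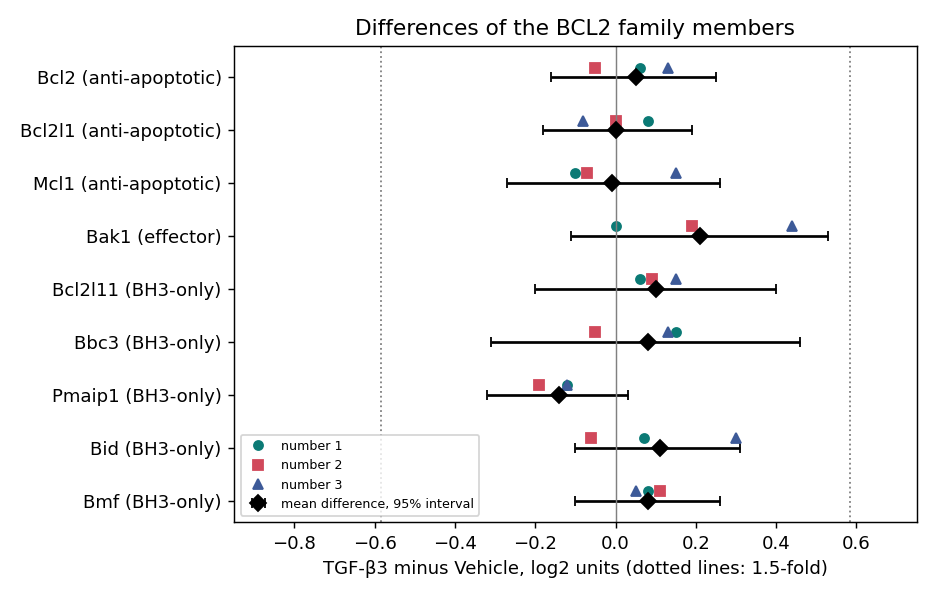
Difference TGF-β3 minus Vehicle in log2 units (horizontal axis) for each measured gene. Black diamonds are mean differences with 95% intervals from limma, coloured points are the pairs by title number, and dotted lines mark 1.5-fold. All 9 intervals include 0 and lie inside the dotted lines.

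The pro-apoptotic genes were on average 0.07 higher in TGF-β3 arrays and the anti-apoptotic genes 0.01. Signals of different genes cannot be compared on an array, so each gene was set to its own mean over the 6 arrays and averaged within its class. For the 6 pro-apoptotic genes this gave 0.16, -0.02 and -0.03 in TGF-β3 arrays 1, 2 and 3, against 0.11, -0.03 and -0.19 in Vehicle arrays. The 3 anti-apoptotic genes gave 0.10, -0.06 and -0.02 in TGF-β3 and 0.09, -0.02 and -0.09 in Vehicle. Both classes were highest in arrays numbered 1. Pro-apoptotic minus anti-apoptotic signal was 0.05, 0.04 and -0.01 in TGF-β3 arrays (SD 0.03) and 0.03, -0.01 and -0.10 in Vehicle arrays (SD 0.07), and the groups overlapped, while each pair leaned the same way. The group difference of this balance was 0.06, with 0.02, 0.05 and 0.09 in the pairs. It was 0.02 without the Vehicle 3 array and -0.11 with the brightest probe set of each gene in place of the mean. Since the members were chosen with earlier results known, no test is given for it.

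In a fit over 213361 probe sets, 0 of the members' 74 passed at an adjusted p under 0.05 in limma and 0 at an unadjusted p under 0.05, a threshold that 4.18% of all probe sets met (0 of all passed adjusted). In TGF-β3, 49 of the 74 were higher and 25 lower (66.2% higher, against 56.4% of all probe sets). The widest scatter was in Bak1, from -0.09 to 0.80, and in Bcl2l11, from -0.38 to 0.37, where the lowest value belonged to its brightest probe set. Mcl1 varied least, from -0.07 to 0.05 over 5 probe sets.

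Family genes outside the list of 10 also stayed close to their vehicle levels. Of 13 such genes measured, 0 passed in limma, with or without the replicate block (0.00959% and 0% of all genes). Without it 0 had an unadjusted p under 0.05, a threshold met by 5.16% of all genes. Among 3 anti-apoptotic ones, Bcl2l2, which encodes BCL-W, differed by 0.16 (SE 0.12), Bcl2l10 by -0.05 (SE 0.08) and Bcl2a1c by -0.15 (SE 0.08). The signals of Bcl2a1c were low, at 3.68 to 3.74 in TGF-β3 and 3.82 to 3.96 in Vehicle, from 1 probe set, and its near-identical relatives Bcl2a1a, Bcl2a1b and Bcl2a1d were not analysed here. All 5 pro-apoptotic ones had lower means in TGF-β3, from -0.10 for Bik to -0.01 for Bad, with Hrk at -0.05, Bcl2l14 at -0.03 and Bok at -0.02. Without the Vehicle 3 array the median of the 5 was 0.00288, with Bcl2l14 and Bok at 0.01 and Bik at 0.00. Bnip3 and Bnip3l, known for mitophagy, differed by 0.11 (SE 0.11) and 0.09 (SE 0.09), Bcl2l13 by 0.15 (SE 0.09), Bcl2l12 by -0.10 (SE 0.10) and Bcl2l15 by -0.07 (SE 0.08).

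Downstream and upstream of the family, most death pathway genes had slightly higher means in TGF-β3, and 0 passed in limma in any list. The median difference of all genes was 0.0112, against 0.0769 for the 9 members. In the apoptosome and mitochondrial release list 9 of 10 genes were higher (median 0.137), led by Htra2, a mitochondrial protease gene, at 0.24 (SE 0.10), the channel gene Vdac2 at 0.18 (SE 0.09) and Aifm1 at 0.15 (SE 0.08). Of 5 caspase and substrate genes 4 were higher (median 0.136), with Casp6 at 0.22 (SE 0.13), Parp1 at 0.14 (SE 0.09) and Dffb at 0.14 (SE 0.09). All 6 measured inhibitor of apoptosis genes were higher (median 0.15).

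Birc5, which encodes survivin, an inhibitor of apoptosis family protein that also serves mitosis, read 7.17, 7.31 and 7.45 in TGF-β3 arrays against 7.07, 7.09 and 6.83 in Vehicle arrays. The groups did not overlap, as in 12.9% of all genes (6.84% with TGF-β3 the higher). The difference of 0.32 (SE 0.11) did not pass (adjusted p = 0.684). It was 0.21 after quantile normalization, 0.16 with the median probe set and 0.07 (SE 0.13) with the brightest. In the same list, Birc3 differed by 0.21 (SE 0.09) and Xiap, a direct caspase inhibitor, by 0.16 (SE 0.09). Death receptor genes and their complex were higher in 9 of 11 (median 0.106), with the adaptor gene Tradd at 0.22 (SE 0.12), the kinase gene Ripk1 at 0.18 (SE 0.10) and Casp8 at 0.14 (SE 0.11). At an unadjusted p under 0.05 there were 1 gene of the mitochondrial list, 2 inhibitor of apoptosis genes, 1 MCL1 turnover gene and 0 in the caspase, death receptor, p53 and BH3-only regulator lists, where 5.16% of all genes met this threshold. With the replicate block the caspase, death receptor and regulator lists had 1 each, and 12.2% of all genes met it.

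All 10 measured genes of the p53 list, which left out Trp53 itself, were higher by a median of 0.0544, with Ei24 at 0.12 (SE 0.10), Aen at 0.15 (SE 0.15) and Mdm2, the p53 ubiquitin ligase gene, at 0.14 (SE 0.15). Of 9 regulators of BH3-only transcription 7 were higher (median 0.0357), with E2f1 at 0.13 (SE 0.08), Foxo3 at 0.12 (SE 0.12) and Trp73 at -0.10 (SE 0.08). All 6 MCL1 turnover genes were at or above 0 (median 0.124). Btrc, a ubiquitin ligase subunit gene, read 8.56, 8.53 and 8.67 in TGF-β3 and 8.43, 8.30 and 8.32 in Vehicle. Its groups did not overlap, as in 12.9% of all genes (6.84% with TGF-β3 the higher). The difference was 0.23 (SE 0.08, adjusted p = 0.684). It was 0.14 after quantile normalization and 0.12 (SE 0.10) with the brightest probe set. Fbxw7 was at 0.15 (SE 0.08) and Gsk3b at 0.13 (SE 0.09). Groups did not overlap either for Fbxw7, Gsk3b, E2f1, Vdac1, Vdac2, Aifm1, Birc3, Xiap, Tradd and Ripk1 of these lists, all higher in TGF-β3.

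These list medians moved with the Vehicle 3 array, with the Vehicle 1 array and with scaling. Without the Vehicle 3 array the medians of the mitochondrial, caspase, inhibitor of apoptosis and death receptor lists were 0.0721, 0.0954, 0.0574 and 0.025. The MCL1 turnover list was then at 0.112. The p53 list (-0.0234) and the BH3-only regulators (-0.0564) then turned sign. Without the Vehicle 1 array instead, medians of these 7 lists were higher than with all arrays, at 0.137 (MCL1 turnover) to 0.202 (inhibitor of apoptosis). The p53 list was then at 0.191 and the BH3-only regulators at 0.168. Leaving out 1 array weighs the title numbers unequally in the 2 groups. In number 1 these last 2 lists had medians 0.29 and 0.225 above numbers 2 and 3, and the part of this was not tested. After quantile normalization the medians of these 7 lists lay between -0.0229 and 0.0687. Genes in the 2 highest of the 5 signal bins had median differences of 0.12 and 0.08 over the whole array, and how much of the list medians this accounts for was not tested.

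**Figure D3:**
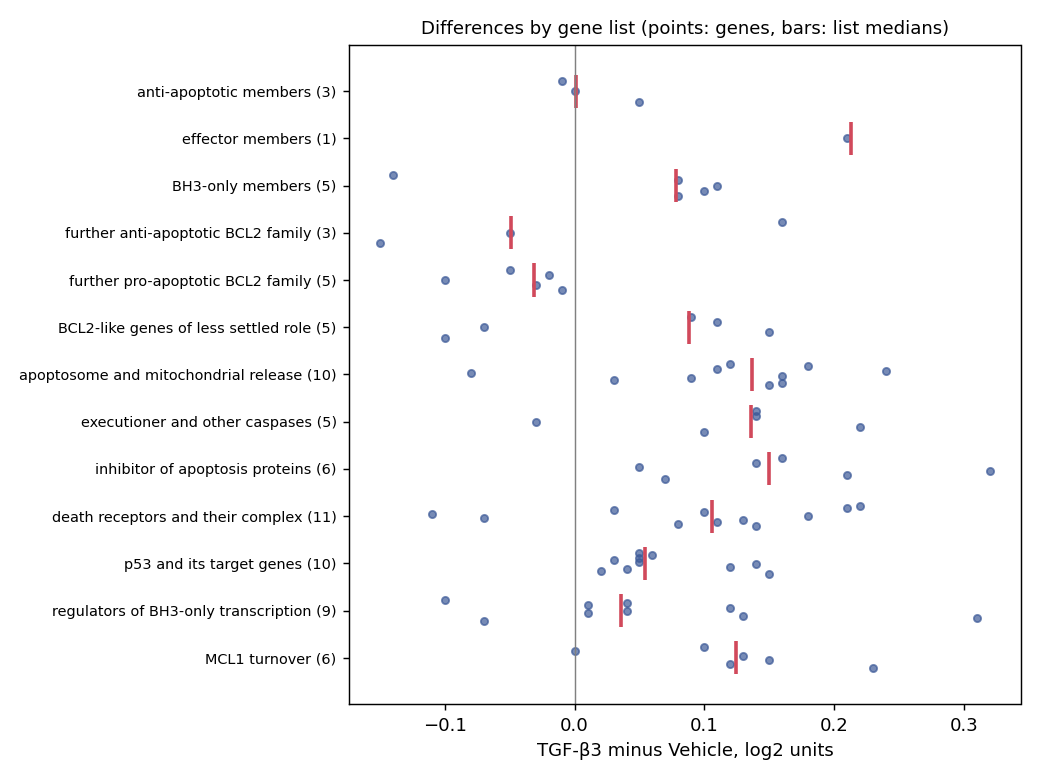
Difference TGF-β3 minus Vehicle in log2 units (horizontal axis) for the genes of each list, with the number measured in brackets. Points are genes and vertical bars list medians. Members scatter around 0 within -0.14 to 0.21, and 0 genes in these lists passed the test.

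In most members title numbers took a larger share of the spread than TGF-β3 against Vehicle. There are more numbers than groups, so numbers take the larger share on average even without any difference. The shares of all genes are therefore given beside those of the members. Arrays of the same number shared between 16.6% (Bid) and 93.7% (Bbc3) of each member's spread over the 6 arrays, measured as a share of the sum of squares, with a median of 66.4% against 46.6% for all genes. The difference between TGF-β3 and Vehicle took a median of 8.09% in the members and 20.2% in all genes. Pmaip1 was the 1 member in which the treatment took most of the spread (72.7%), as in 13.9% of all genes. In 7 of the 9 the numbers took most of the spread, as in 46.1% of all genes. The lowest of these 7 were Bak1 at 57.2% and Bmf at 57.3%, where the treatment took 24.9% and 39.1%.

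Arrays numbered 1 were then set against those numbered 2 and 3, with the treatment kept as a term, a contrast chosen after these values were seen. Same-numbered arrays deviate together, least so in number 3, and are taken as pairs, so number 1 is an arm of 1 unit. The differences are therefore values without a test. Bbc3 averaged 6.06 in the 2 arrays numbered 1 and 5.57 in the 4 numbered 2 and 3, a difference of 0.49. All 5 of its probe sets were higher in number 1, by 0.22 to 0.90. The difference was 0.22 with the median probe set in place of the mean, and 0.43 to 0.54 when 1 array was left out.

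Bcl2l11 averaged 7.58 in number 1 and 7.26 in numbers 2 and 3, a difference of 0.32, with all 12 probe sets higher in number 1. For Mcl1 the means were 9.13 in number 1 and 8.88 in numbers 2 and 3, a difference of 0.25. With the brightest probe set of each gene, these differences were 0.01 for Bcl2l11 and 0.02 for Mcl1. The other 6 members differed by 0.06 to 0.16. Of these 6, Bcl2, Bid and Bmf turned sign after quantile normalization, and Bak1, Pmaip1, Bid and Bmf did so with the brightest probe set. Of the 3 Pmaip1 probe sets, 1 was higher in number 1. In 6 of the 9 members number 1 was the highest array of both groups, as in 21.1% of all genes. The labels name 3 experiments without tying a number to one, so the numbers are taken here as they stand in the titles.

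Of the 9 regulators of BH3-only transcription, 6 were higher in number 1 and 3 lower, from -0.15 to 1.05, and of the 10 genes of the p53 list 10 were higher, by 0.04 to 0.58. Over the whole array 50.7% of genes were higher in number 1. The highest value among the regulators belonged to Ddit3, which encodes the unfolded protein response factor CHOP and is named after its values were seen. Ddit3 read 8.79 and 8.47 in TGF-β3 1 and Vehicle 1, and 7.35 to 7.97 on the other 4 arrays. Atf4, which encodes a factor upstream of Ddit3 in the same response, differed by 0.16. Among cell type markers, 10 of 13 mammary epithelial, 2 of 8 macrophage, 2 of 8 fibroblast and 0 of 7 endothelial markers were higher in number 1. Their values ran from -0.10 to 0.74, from -0.42 to 0.13, from -0.64 to 0.25 and from -0.26 to -0.01, in that order of cell types. Their part in the members' differences was not tested.

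**Figure D4:**
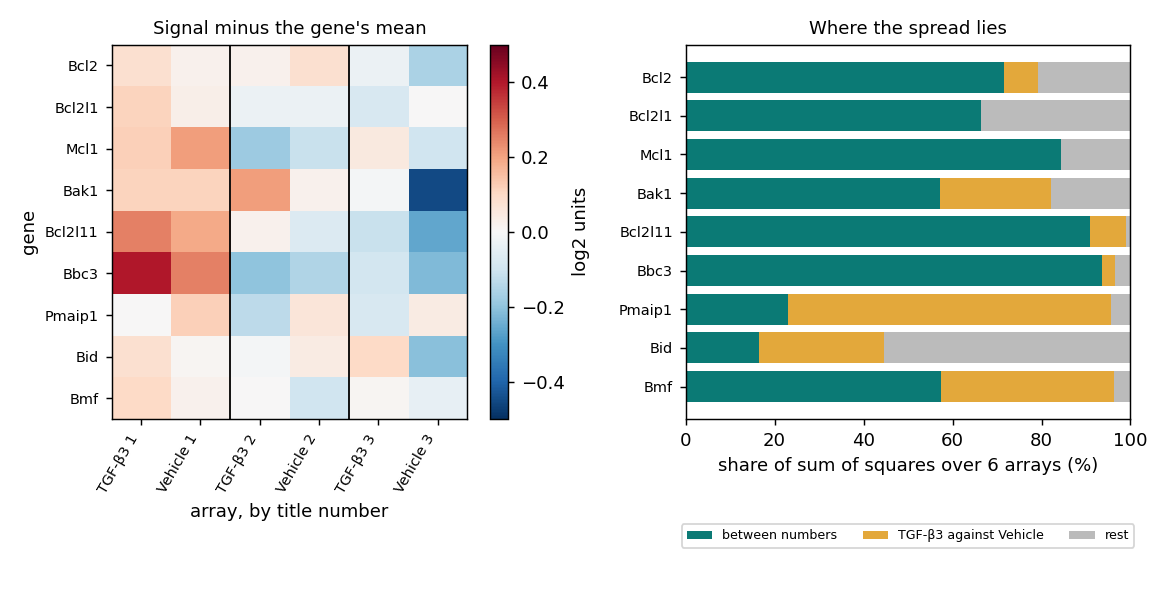
Left, log2 signal minus the gene's mean over the 6 arrays, by title number (red above, blue below the mean). Right, the share of each gene's sum of squares over the 6 arrays that lies between numbers, between TGF-β3 and Vehicle, and in the rest. Bbc3 and Bcl2l11 are high in both arrays numbered 1, with 93.7% and 90.8% of their spread between numbers.

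Genes closest in pattern to the 3 members of largest spread were found by the root mean square difference of the centred log2 signals over the 6 arrays. Bbc3 was nearest to Prss56 (0.0217 log2 units), Selenos (0.0235) and Mxd1 (0.0356), against a median of 0.254 over all genes. Selenos encodes a protein of the endoplasmic reticulum that takes part in the removal of misfolded proteins, and Mxd1 a MAX-binding repressor. Bak1 was nearest to Dennd6a (0.0263), Gcc2 (0.0358) and Mtg1 (0.0369), all with Vehicle 3 as their lowest array. Bcl2l11 was nearest to Pgpep1 (0.0166), Saraf (0.0249) and Sash1 (0.0256). With 6 arrays and 20848 genes, near matches are found for many genes, so these values are a description.

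The start sites of Bbc3 and Bcl2l11 are shown because both members were high in the arrays numbered 1 and because Bcl2l11 has a described TGF-β response. RefSeq windows (GRCm38.p6, 250 bases before to 50 after a start) were used for 8 of the 9 members, with none for Pmaip1. Member windows on 1 chromosome were left out before the 8 were counted, so the count does not show whether Pmaip1 had a window there. This step was not applied to the count over all windows. It left 15 member windows, some of them overlapping. Each was searched on both strands for CAGAC, the short SMAD box, for GGCGCC, a GC-rich motif that SMAD proteins also bind, and for TGAGTCA, the AP-1 site. CAGAC was in 6 of the 15 windows and in 49.6% of all 32851 windows, GGCGCC in 4 of 15 and 11.9%, and TGAGTCA in 0 of 15 and 5.2%. GGCGCC and TGAGTCA each end in letters with which CAGAC begins, so matches can overlap, though none do in the windows printed. The windows printed are the first listed of each gene that hold both CAGAC and GGCGCC, with matches to either, on either strand, in capitals. They lie at chr7:16309333-16309632 and chr2:128127325-128127624, both on the plus strand.
Bbc3: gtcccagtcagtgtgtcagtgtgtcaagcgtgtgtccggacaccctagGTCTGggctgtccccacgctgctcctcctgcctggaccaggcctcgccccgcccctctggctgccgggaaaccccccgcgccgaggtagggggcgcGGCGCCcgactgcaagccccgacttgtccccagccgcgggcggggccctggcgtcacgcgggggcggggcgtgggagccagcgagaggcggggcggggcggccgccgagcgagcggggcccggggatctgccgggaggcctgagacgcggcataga
Bcl2l11: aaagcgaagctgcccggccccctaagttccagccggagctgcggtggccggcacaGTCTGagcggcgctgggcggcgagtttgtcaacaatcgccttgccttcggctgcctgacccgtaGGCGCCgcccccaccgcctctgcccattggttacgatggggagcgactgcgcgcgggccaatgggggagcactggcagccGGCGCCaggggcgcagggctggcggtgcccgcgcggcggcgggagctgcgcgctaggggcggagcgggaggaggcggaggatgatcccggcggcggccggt
The Bbc3 window holds 1 match to CAGAC and 1 to GGCGCC, and the Bcl2l11 window 1 and 2. Such a match is not a measured binding site, and neither gene passed the test for TGF-β3 against Vehicle (0.08 and 0.10).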

How the data were processed

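RNA of 6 EpH4 samples was measured on an Affymetrix whole-transcript mouse gene array (3 TGF-β3, 3 Vehicle). The authors deposited 1 table of log2 signals for 241576 probe sets, processed with RMA in Affymetrix Power Tools per the submitters' processing notes; no version was given there. Their log2 scale follows from their range, 2.96 to 13.07. Probe sets with 1 symbol in the platform table (213361, 88.3%) were averaged per gene and array, after 2354 of 20893 symbols were updated through the mouse RefSeq table, which gave 20848 genes with no filter on low signal. Levels of different probe sets are not comparable, and near-identical genes may share signal.

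Groups were compared with limma 3.58.1 in R 4.3.3 (lmFit, eBayes, no block). P-values were adjusted by Benjamini-Hochberg over all genes, with a threshold of 0.05. SE is the standard error of a difference, and intervals are 95%, both from the fit without the block unless stated. Same-numbered samples deviated together from their group means (correlations over genes of 0.622, 0.406 and 0.225), so the numbers were taken as pairs and the replicate block was run. Differently numbered samples gave -0.492 to 0.171, the highest for TGF-β3 2 with Vehicle 3. That value is close to the 0.225 of number 3, so the pairing is least clear there. Whether the samples of a group came from separate experiments rests on the series' design text.

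Members and lists were chosen with earlier results of these data known. Named genes were the members, the other family genes, the 3 genes of smallest p per further list and the 3 nearest in pattern to the 3 most variable members. The fits were tested on simulated data for 20848 genes: in the treatment comparison 93% of genes changed by 1 log2 unit and 100% of those changed by 2 were recovered. In it 11 unchanged genes were also called. The simulated arrays had no pairing by number and no compressed array. Changes as small as those of the members were not simulated, so recovery at that size is unknown. Python 3.11.15 with pandas 2.3.3 built the tables, and matplotlib 3.10.9 drew the plots. Alternatives were quantile normalization, median centring, the median or brightest probe set, omission of the 25% of genes of lowest signal, eBayes options, array weights and omission of arrays.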

Additional observations from a re-analysis of the deposited data

How the results depend on the processing

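Of the 9 members 0 passed for TGF-β3 against Vehicle under any alternative run. Over all genes the count was 0, with 2 under the replicate block and 0 to 1 when an array was left out. At an unadjusted p under 0.05 in limma, 1 member (Bak1) met the threshold without the Vehicle 1 array, as did 3796 of all 20848 genes. In the other runs 0 members met it. The block changed no member's call. Pro-apoptotic minus anti-apoptotic signal, 0.06, was 0.10 after quantile normalization with or without the block, -0.11 with the brightest probe set, 0.20 with the effector alone, 0.02 with the wider family and 0.02 to 0.09 with an array left out. The cause of these moves was not tested. Differences with turned signs, all below the threshold, were, for TGF-β3 minus Vehicle after quantile normalization (with or without the block), Bcl2 -0.07, Bcl2l1 -0.10, Bcl2l11 -0.01, Bmf -0.05, Bcl2l10 0.03, Bcl2l14 0.05 and Bcl2l15 0.02. With the median probe set they were Bcl2l1 -0.02, Bbc3 -0.13, Bcl2l14 0.07 and Gsk3b -0.01. With the brightest probe set they were Bcl2l1 -0.02, Mcl1 0.01, Bcl2l11 -0.38, Bbc3 -0.07, Bmf -0.05, Hrk 0.18, Aifm1 -0.03, Parp1 -0.04, Tradd -0.05, Ripk1 -0.04, Ei24 -0.01, Aen -0.05, Mdm2 0.00 and Foxo3 -0.01. With array weights they were Bcl2 -0.03, Mcl1 0.04, Bok 0.07, Bad 0.01, Bik 0.02 and Bcl2l14 0.00. Without both arrays numbered 3 they were Bok 0.03, Bad 0.02, Bik 0.04, Bcl2l14 0.03 and Mdm2 -0.01. Leaving out 1 array at a time also turned 11 genes, whose ranges were Mcl1 -0.07 to 0.10, Bok -0.11 to 0.04, Bad -0.06 to 0.05, Bcl2l1 -0.05 to 0.04, Bbc3 -0.10 to 0.22, Bcl2 -0.02 to 0.10, Bcl2l11 -0.01 to 0.22, Bcl2l10 -0.08 to 0.00, Bik -0.19 to 0.00, Bcl2l14 -0.06 to 0.01 and Mdm2 -0.02 to 0.31. For number 1 minus numbers 2 and 3, a contrast chosen after seeing the data, turned values were Bcl2 -0.02, Bid -0.02 and Bmf -0.01 after quantile normalization, Bak1 -0.09, Pmaip1 -0.12, Bid -0.03 and Bmf -0.06 with the brightest probe set, and Bak1 -0.01 without both arrays numbered 3.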
